A study of Drosophila melanogaster with 3 samples.

Results

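Binding of HLHm7, a basic helix-loop-helix repressor of the Enhancer of split complex, was examined at the genes for cytosolic translation initiation factors (eIF) and elongation factors (eEF) of Drosophila melanogaster. The members were every protein-coding gene whose symbol starts with eIF or eEF in the Ensembl gene models on build dm6, which gave 52 of 13945 protein-coding genes on arms X, 2L, 2R, 3L and 3R and on chromosome 4. Chromatin immunoprecipitation with sequencing (ChIP-seq) was made in 3 biological replicates of 1 group: whole embryos of 0 to 16 h, both sexes pooled, of the strain HLHm7-GFP, a transgenic line that stably carries HLHm7 fused at its C terminus to GFP, with an insertion described as targeting E(spl)m7-HLH. The immunoprecipitation used an antibody to GFP according to the sample descriptions, while the antibody field of the labels names E(spl)m7-HLH. All 3 samples carry the tagged protein, so no groups were compared. What drives the transgene is not given in the sources used here. In whole embryos a bound region cannot be assigned to a cell type.

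Translation starts when eIF2, bound to GTP, brings the initiator tRNA to the small ribosomal subunit, with eIF1, eIF1A, eIF3 and eIF5 on the same subunit. The cap-binding protein eIF4E, the scaffold eIF4G and the helicase eIF4A bring in the messenger RNA, eIF2B recharges eIF2 with GTP, and eIF5B joins the large subunit. In elongation, eEF1alpha delivers aminoacyl-tRNA, the complex of eEF1beta, eEF1delta and eEF1gamma recharges it, and eEF2 moves the ribosome along the message. Early embryos depend on translational control of maternal messages, in which the cap-binding repressor eIF4EHP acts on caudal and hunchback. HLHm7 belongs to the Notch-responsive repressors that recruit the corepressor Groucho, and proteins of this family are known to bind N-box, class B and class C sequences.

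The sequences below come from 7 of the 12 bound factor genes and 3 with no region listed within 1 kb of a start. They show what lay under the strongest point (the summit) of the bound regions, in order of falling signal, and in the 3 promoters. They were read from the NCBI RefSeq genome of the same build, 5′ to 3′ on the strand of the factor gene, within 50 bp of the summit or upstream of the transcription start site (TSS), without bases annotated as untranslated. The windows of the other 5 bound genes are not printed. Capitals mark a match to one of the motifs searched, which are spelled out with the motif results. The summit windows are at chrX:2703853-2703933 (+ strand), chr3R:29220104-29220171 (+ strand), chr3L:3222978-3223078 (+ strand), chr3R:24109040-24109140 (- strand), chr2L:5052482-5052582 (- strand), chr3R:29936402-29936502 (- strand) and chr2L:21682165-21682213 (- strand), in the order printed. The eEF2 window holds only the bases before the TSS, because the summit lies 1 bp downstream of it, in the exon. The last 3 are the promoter windows of eIF2alpha at chrX:16446994-16447094 (- strand), eIF3g1 at chrX:2610337-2610437 (- strand) and eIF4B at chr3L:27858272-27858372 (- strand).
eIF2Bbeta: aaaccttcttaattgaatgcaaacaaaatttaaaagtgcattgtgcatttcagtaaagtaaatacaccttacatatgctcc
eEF1gamma: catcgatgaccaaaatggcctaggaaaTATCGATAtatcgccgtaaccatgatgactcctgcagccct
eIF1: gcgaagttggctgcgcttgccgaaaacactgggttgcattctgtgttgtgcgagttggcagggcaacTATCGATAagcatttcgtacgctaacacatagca
eIF4EHP: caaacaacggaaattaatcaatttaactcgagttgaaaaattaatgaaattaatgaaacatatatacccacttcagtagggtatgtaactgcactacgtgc
eIF3h: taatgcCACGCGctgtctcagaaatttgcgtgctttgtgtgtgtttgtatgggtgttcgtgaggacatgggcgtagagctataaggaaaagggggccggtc
eIF2Balpha: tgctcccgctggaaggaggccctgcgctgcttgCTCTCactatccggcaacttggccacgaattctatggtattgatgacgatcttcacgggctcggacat
eEF2: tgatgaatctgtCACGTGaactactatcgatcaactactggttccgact
eIF2alpha: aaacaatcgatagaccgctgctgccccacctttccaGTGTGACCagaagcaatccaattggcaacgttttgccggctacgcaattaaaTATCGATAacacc
eIF3g1: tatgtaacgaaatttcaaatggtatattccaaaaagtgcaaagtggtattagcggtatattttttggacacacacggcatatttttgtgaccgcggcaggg
eIF4B: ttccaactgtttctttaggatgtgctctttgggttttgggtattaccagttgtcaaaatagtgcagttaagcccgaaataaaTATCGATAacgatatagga
The eEF1gamma and eIF1 windows each hold a DRE, the TATCGATA element bound by the promoter factor DREF. The promoters of eIF2alpha and eIF4B hold it without a region within 1 kb in any list. For eIF4B the nearest pooled summit was 44327 bp away and the nearest optimal summit 4979383 bp away. No optimal region was thus listed anywhere in that part of 3L. The eIF3h window holds a class C site, the eEF2 window a class B site, and the eIF2Balpha window a GAGA match on the opposite strand. The windows of eIF2Bbeta, which has the strongest region of all the factor genes, and of eIF4EHP hold none of the motifs.

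HLHm7 regions lay at 12 of the 52 factor genes, which is 23.1% (95% Wilson interval 13.7 to 36.1%), beside 12.4% of all protein-coding genes. A gene was counted as bound where the summit of a region in the optimal set lay within 1 kb of one of its TSSs. The optimal set holds the 2397 regions that the authors kept after comparing replicates with the irreproducible discovery rate (IDR), and all 2397 are the highest-signal regions of their pooled list. The 2397 regions of highest signal in a replicate are called its top list, as many as the optimal set holds. With only the optimal regions also found in the top lists of both replicates 2 and 3, called here without replicate 1, the count was 7, beside 8.54% of all genes. The optimal set itself still rests on all 3 replicates, so this stricter count could only fall. The Wilson intervals cover counting error only, neighbouring genes can share a region, and read depth is unknown. The bound genes were eIF2Bbeta, eIF6, eEF1gamma, eIF1, eEF1alpha1, eIF3c, eEF5, eIF4EHP, eIF3h, eIF2Balpha, eIF3m and eEF2, in order of falling signal. By role, 2 of 8 genes for eIF2 and eIF2B, 3 of 16 for eIF3, 1 of 13 for eIF4 and cap binding, 2 of 7 other initiation factors and 4 of 8 elongation factors were bound. The share of elongation factor genes was 50% with an interval of 21.5 to 78.5%. With the demand for the top lists of both replicates 2 and 3 it was 25%, 2 of 8. eEF2 was lost because it was not in the top list of replicate 2, and eEF5 because it was not in that of replicate 3. The share of the eIF4 and cap-binding genes was 7.69% with an interval of 1.37 to 33.3%. These shares were not compared by a test.

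Factor genes with a region in the top list numbered 13 in replicate 1 (25% beside 12.6% of all genes), 10 in replicate 2 (19.2% beside 11.8%) and 11 in replicate 3 (21.2% beside 12.4%). A region in every top list was found at 7 factor genes, 13.5% with an interval of 6.68 to 25.3%, beside 7.77% of all genes. Those 7 were eIF2Bbeta, eIF6, eEF1gamma, eIF1, eEF1alpha1, eIF3c and eIF4EHP. eIF3h, eIF3m, eEF2 and eEF5 were each in 2 top lists, and eIF2Balpha was in that of replicate 1 only.

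**Figure D1:**
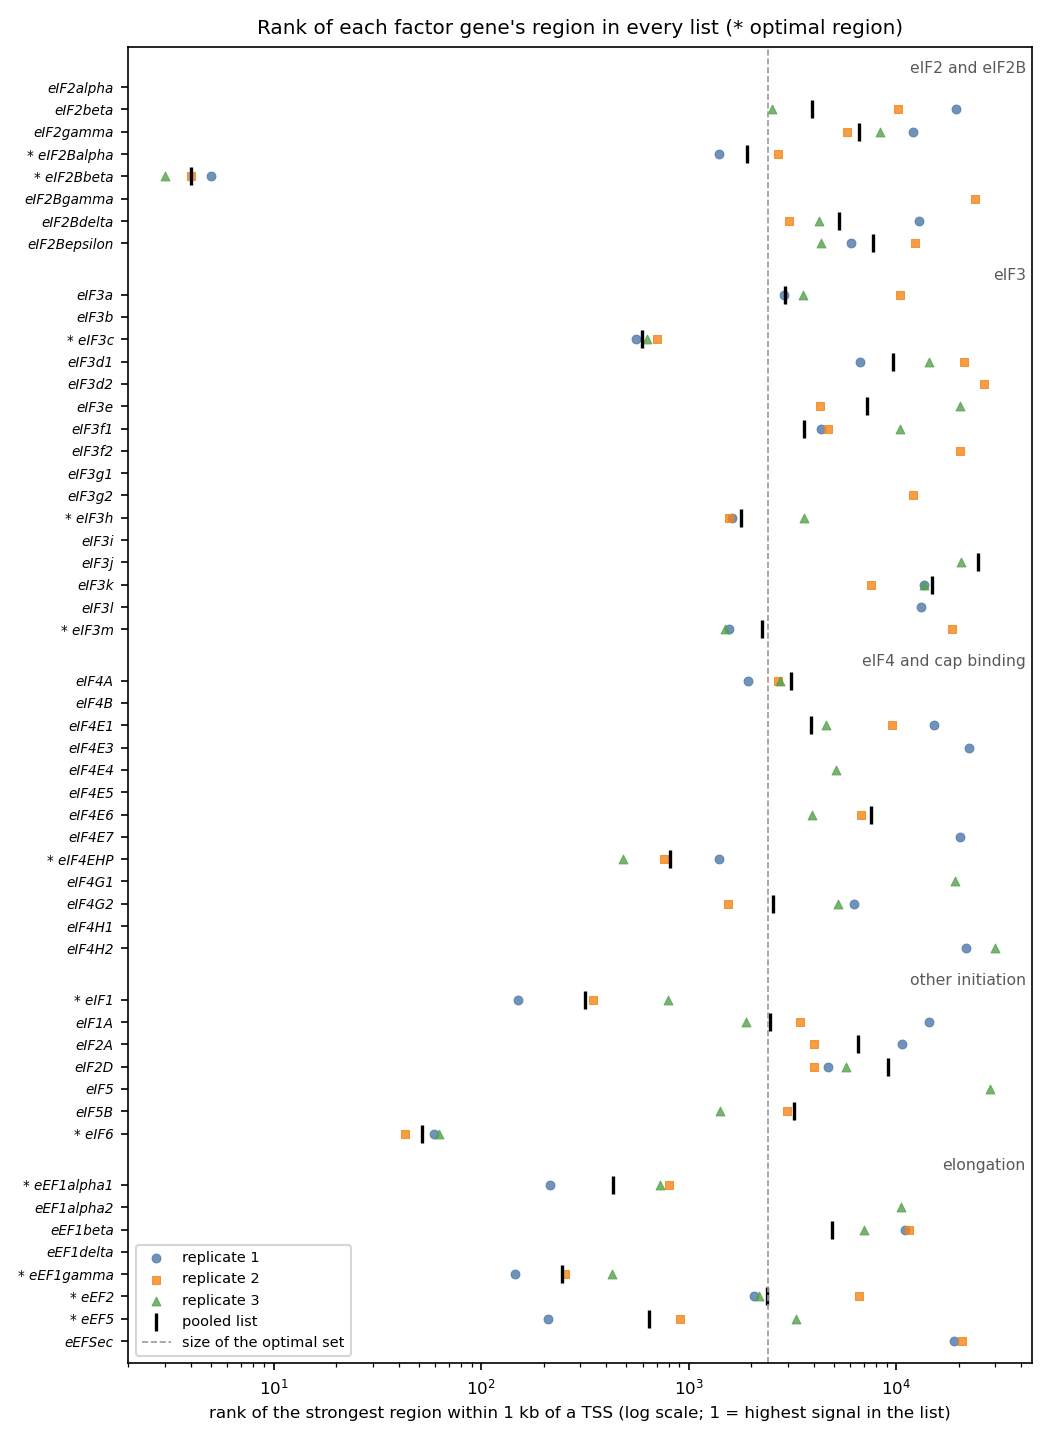
Rank of the strongest region within 1 kb of a TSS of each of the 52 factor genes, by role, in the 3 replicate lists (coloured points) and the pooled list (black bar), on a log axis where 1 is the highest signal. The dashed line stands at rank 2397, the size of the optimal set; asterisks mark the 12 bound genes, and genes with no point had no region within 1 kb in any list.

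Of the 8 genes for eIF2 and its exchange factor eIF2B, eIF2Bbeta and eIF2Balpha were bound. eIF2Bbeta (FBgn0024996) had the strongest region of the factor genes, at chrX:2703694-2704076, with a signal of 1398 and rank 4 of the 2397 optimal regions. The signal is the authors' value for the region, has no stated scale and was read only as a rank within a list, where 1 is the highest. Its signals of 414, 597 and 410 in replicates 1, 2 and 3 gave ranks 5, 4 and 3 (mean 4 ± 1, SD, n = 3), so the region stood near the head of every list. The summit lay 688 bp upstream of eIF2Bbeta and 31 bp upstream of Ugalt, the gene for a Golgi UDP-galactose transporter, which starts 719 bp away in the other direction.

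eIF2Balpha (FBgn0039726) had a region at chr3R:29936260-29936643 with a signal of 105 and rank 1904. It ranked 1391 in replicate 1 and 2684 in replicate 2, and replicate 3 listed no region within 1 kb, so the replicates differed. The summit lay 564 bp upstream of eIF2Balpha, in a coding exon of the divergent gene Vps13B and 474 bp downstream of that gene's start. These were the bound genes with the most distant summits.

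The genes for eIF2 itself had no optimal region. eIF2beta ranked 3932 and eIF2gamma 6584 in the pooled list of 30000 regions, which holds background regions too. eIF2alpha, whose phosphorylation lowers initiation under stress, had no region within 1 kb in any list. Of the remaining eIF2B genes, eIF2Bdelta ranked 5284 and eIF2Bepsilon, the catalytic subunit, 7694 in the pooled list. eIF2Bgamma had a region within 1 kb in replicate 2 only, at rank 23863.

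Of the 16 genes for eIF3, the scaffold on the small subunit, eIF3c, eIF3h and eIF3m were bound. eIF3c (FBgn0034258) had a region at chr2R:17665528-17665911 with a signal of 205 and rank 598, and ranked 554, 706 and 629 in replicates 1, 2 and 3 (mean 630 ± 76, SD, n = 3). Its replicates lay close together, and the summit was 39 bp upstream of its TSS. eIF3h (FBgn0022023), whose region at chr2L:5052340-5052723 had a signal of 109 and rank 1788, ranked 1617, 1560 and 3583. The eIF3h summit was 248 bp downstream of the TSS, in the gene's own intron. eIF3m (FBgn0033902), with a region at chr2R:14164715-14165098, a signal of 94.7 and rank 2243, ranked 1559, 18549 and 1492, so replicate 2 stood far from the other replicates.

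Of the other eIF3 genes, 6 had a pooled region without an optimal one. eIF3a ranked 2922 and eIF3f1 3579, and the remaining 4 ranked from 7250 (eIF3e) to 24651 (eIF3j), with eIF3d1 at 9629 and eIF3k at 14796. eIF3d2, eIF3f2 and eIF3g2 had a region in replicate 2 only and eIF3l in replicate 1 only, at ranks from 12002 to 26313. eIF3b, eIF3g1 and eIF3i had none within 1 kb in any list. The second genes for a subunit, eIF3d2, eIF3f2 and eIF3g2, thus had no pooled region within 1 kb, and neither had eIF3b, eIF3g1, eIF3i and eIF3l.

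Among the 13 genes for eIF4 factors and cap-binding proteins, the bound gene was eIF4EHP (FBgn0053100), which encodes the cap-binding protein that does not bind eIF4G. Its region at chr3R:24108898-24109281 had a signal of 175 and rank 813. It ranked 1393, 764 and 484 in replicates 1, 2 and 3 (mean 880 ± 466, SD, n = 3), inside every top list. The summit lay 130 bp upstream of its TSS and 246 bp upstream of CG18428, which starts 376 bp away on the other strand.

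The other eIF4 and cap-binding genes had no optimal region. eIF4A, the helicase, ranked 3098 in the pooled list, and 1921, 2679 and 2759 in the replicates. eIF4G2, a scaffold gene, ranked 2555 in the pooled list and 6261, 1549 and 5235 in the replicates. Each of these was in the top list of 1 replicate, eIF4A in replicate 1 and eIF4G2 in replicate 2. The eIF4A summits in the replicates lay from 1007 to 1489 bp away from its pooled summit, so they mark another site near the gene. eIF4E1, the main cap-binding gene, ranked 3879 and eIF4E6 7565 in the pooled list. eIF4E3, eIF4E4, eIF4E7, eIF4G1 and eIF4H2 had regions in replicates only, at ranks from 5143 to 29992. eIF4B, eIF4E5 and eIF4H1 had none within 1 kb in any list.

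Of the 7 other initiation factor genes, eIF6 and eIF1 were bound. eIF6 (FBgn0034915), which keeps the large subunit from joining early, had a region at chr2R:23850261-23850504 with a signal of 624 and rank 52. It ranked 59, 43 and 63 in the replicates (mean 55 ± 10.6, SD, n = 3), high in each. The summit was 124 bp upstream of eIF6 and lay in an intron of ytr, 648 bp downstream of the start of that gene, which runs on the same strand.

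eIF1 (FBgn0035423), which acts in start codon selection, had a region at chr3L:3222836-3223219 with a signal of 282 and rank 315. It ranked 151, 347 and 795 in the replicates (mean 431 ± 330, SD, n = 3), all inside the top lists. The summit lay 313 bp upstream of eIF1 and 68 bp upstream of RpL28, a gene for a protein of the large ribosomal subunit that starts 381 bp away in the other direction.

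Next to the optimal set stood eIF1A, at pooled rank 2452 with a signal of 89.1, while eEF2 was the last bound gene at rank 2374 with 91.3. eIF1A ranked 14378, 3431 and 1885 in the replicates and eIF5B, at pooled rank 3196, had no region in replicate 1 and ranks of 2978 and 1419 in the others. Both were in the top list of replicate 3 only. eIF2A, which can deliver initiator tRNA by another route, ranked 6561 and eIF2D 9094. eIF5, the GTPase activator of eIF2, had a region in replicate 3 only, at rank 28228.

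Of the 8 elongation factor genes, eEF1gamma, eEF1alpha1, eEF5 and eEF2 were bound, and all 4 summits lay within 52 bp of the gene's own TSS. eEF1gamma (FBgn0029176) had a region at chr3R:29220049-29220223 with a signal of 311 and rank 244, and ranked 145, 254 and 427 in the replicates (mean 275 ± 142, SD, n = 3). eEF1alpha1 (FBgn0284245), the main gene for the tRNA-delivering factor, had a region at chr2R:11891878-11892261 with a signal of 240 and rank 434, and ranked 215, 799 and 724. Both were in every top list. The eEF1gamma summit was 18 bp upstream of its TSS in intergenic sequence, and no other gene starts within 1 kb. The eEF1alpha1 summit was 52 bp upstream of the nearest of its 4 TSSs, in an intron of the gene.

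eEF5 (FBgn0285952), the fly gene for eIF5A, which carries hypusine and relieves stalled ribosomes, had a region at chr2R:24057561-24057944 with a signal of 199 and rank 643. It ranked 210, 908 and 3273 in the replicates, the last outside the top list. eEF2 (FBgn0000559), at chr2L:21681971-21682354 with a signal of 91.3, ranked 2054, 6588 and 2176. The replicate 2 summit lay 753 bp from the pooled one, so the strongest replicate 2 region within 1 kb of eEF2 was at another site. eEF1beta ranked 4878 in the pooled list without an optimal region. eEF1alpha2, the second alpha gene, had a region in replicate 3 only at rank 10469, eEFSec, for selenocysteine, in replicates 1 and 2 at 18884 and 20619, and eEF1delta none.

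In the median, bound factor genes ranked above all bound genes, but not each of them did. The median optimal rank of the 12 bound genes was 620.5, beside 1111.5 for the 1728 bound genes in all. eIF3h, eIF2Balpha, eIF3m and eEF2 stood below that median of all bound genes, at ranks from 1788 to 2374. The median rank of the bound factor genes was 384.5 in replicate 1, 781.5 in replicate 2 and 724 in replicate 3 (12, 12 and 11 genes). For all bound genes with a region there it was 1078, 1138.5 and 1115. The ranks of the optimal and pooled lists rest on the same reads as the replicates, so these are not independent measures. At the 12 bound genes, 34 of 35 replicate summits lay within 62 bp of the pooled summit, the exception being eEF2 in replicate 2.

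The share of factor genes with a region depended on how deep the list was read. With the 500 highest pooled regions it was 9.62% beside 3.02% of all genes, with 1000 it was 15.4% beside 5.74%, with 5000 it was 40.4% beside 21.6%, and with 10000 it was 55.8% beside 33.7%. The shares then came together: 57.7% beside 49.2% at 20000 regions and 59.6% (31 of 52, interval 46.1 to 71.8%) beside 59.7% at the full 30000. Factor genes with a pooled region therefore lay mostly in its upper part, with a median rank of 3098 beside 8314.5 for all genes with one, and only eIF3j and eIF3k ranked beyond 10000. At 5000 regions per replicate, the shares were 30.8%, 36.5% and 38.5% in replicates 1, 2 and 3, beside 21.0%, 21.1% and 21.3% of all genes. At 10000 regions, replicate 1 gave 36.5% beside 32.1%, and replicates 2 and 3 gave 46.2% and 48.1% beside 32.8% and 32.6%. Replicate 1 was the nearest to all genes at both depths. In all, 8 factor genes (15.4%) had no region within 1 kb in any list, beside 18.7% of all genes.

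**Figure D2:**
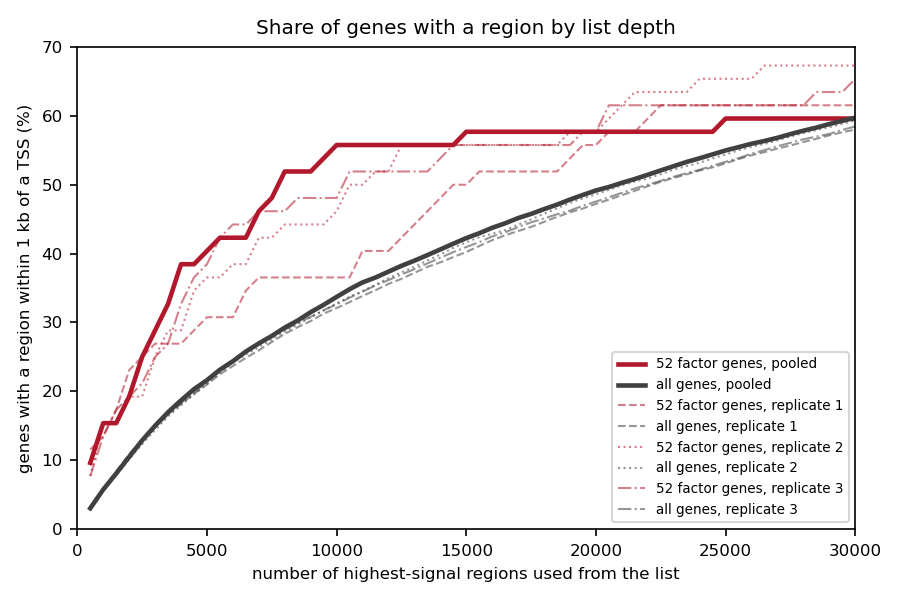
Share of genes with a region within 1 kb of a TSS (percent, vertical axis) against the number of highest-signal regions used from a list (horizontal axis), for the 52 factor genes (red) and all 13945 protein-coding genes (grey), in the pooled list (thick lines) and each replicate (thin lines). The pooled lines stand at 40.4% and 21.6% at 5000 regions and meet at 59.6% and 59.7% at 30000.

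Summits at bound factor genes lay close to a start. The median distance to the nearest TSS of the gene was 103 bp beside 190 bp for all bound genes, and 8 of 12 (66.7%) lay within 150 bp beside 41.4%. Upstream of the TSS were 10 of 12 (83.3%), much as for all bound genes (82.6%). The factor gene's own start was the nearest to the summit at 9 of 12 (75%, beside 70.4%), and at 5 of the 7 left without replicate 1. The nearest start was that of Ugalt, RpL28 and Vps13B at eIF2Bbeta, eIF1 and eIF2Balpha.

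Another gene also started within 1 kb of the summit at 9 of the 12 bound genes. For 8 of these the neighbour was divergent, with 63 to 719 bp between the starts, and for eIF6 it was ytr on the same strand. The summit lay between the starts at 6 of the 8 divergent pairs and outside them at eIF3h, beside senju, and eIF2Balpha. Over all factor genes, 26 of 52 (50%) had a divergent neighbour within 1 kb, 9 of 12 bound (75%) and 17 of 40 unbound (42.5%), beside 36.2% of all genes and 60.9% of all bound genes. A region between a pair of divergent starts was counted for both genes, and ChIP-seq cannot assign it to one. The eIF1 region is thus also that of the ribosomal protein gene RpL28.

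**Figure D3:**
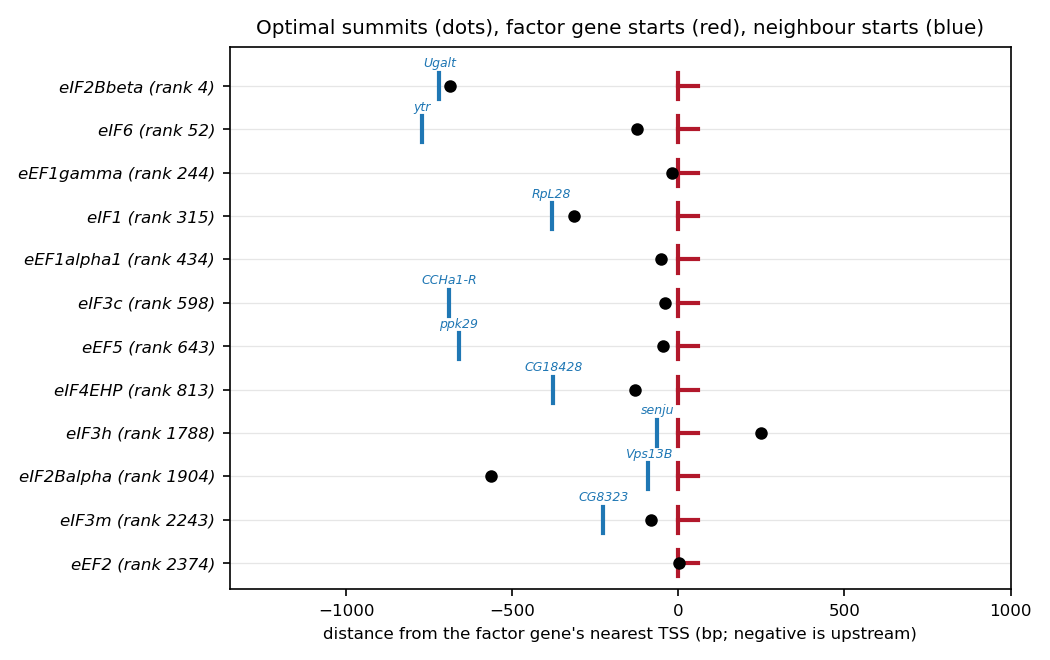
Position of the summit (black dot) of each of the 12 bound factor genes relative to its nearest TSS (red, at 0 with the gene running right) and to the starts of other genes within 1 kb of the summit (blue), in bp, with the optimal rank beside the name. Summits at eIF2Bbeta, eIF1 and eIF2Balpha lie nearer to the neighbour's start than to the factor gene's.

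The bound genes with the summits nearest to the limit of 1 kb were eIF2Bbeta and eIF2Balpha, at 688 and 564 bp upstream. Outside it, optimal summits lay 1256 bp upstream of eIF2Bgamma (rank 1575, signal 119), 1338 bp upstream of eIF3d1 (rank 1614, signal 117) and 1385 bp downstream of the eIF3g1 start (rank 1235, signal 139). Their nearest starts were 30 bp away at Vha36-1, 194 bp away at GILT2 and 75 bp away at Smyd3. A second region of eEF1alpha1, 1201 bp upstream in an intron of ERp60, ranked 208 with a signal of 332, above its counted region.

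The median length of the 52 factor genes was 1955 bp beside 2166 bp for all genes, and of the 12 bound ones 1831 bp beside 3489 bp for all bound genes. A single TSS was annotated for 32 factor genes (61.5%), beside 73.5% of all genes. A gene with more starts has more sequence within 1 kb of one. With the outermost start only, 12 factor genes (23.1%) were bound beside 11.0% of all genes.

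Motifs were searched as exact letters on both strands in promoter windows, from 250 bp before to 50 bp after the outermost TSS, and within 100 bp of summits. The motifs were the DRE (TATCGATA), the core of Motif 1 (GGTCACAC), the class B site (CACGTG), the class C site (CACGCG), an E-box (CACCTG), the N-box (CACNAG) and GAGA (GAGAG), and none contains another. The DRE was in 14 of 52 factor gene promoters (26.9%), beside 9.36% of all promoters and 12.8% of those of all bound genes. The 14 comprised 4 of the 12 bound genes (eEF1gamma, eIF2Bbeta, eIF3c and eIF6) and 10 of the 40 unbound ones. Among the unbound ones were eIF4A, eIF1A, eIF2alpha and eIF4B, whose nearest optimal summit was 4979383 bp away. At summits, the DRE lay within 100 bp at eEF1gamma and eIF1, 16.7% of the 12 beside 3.38% of all optimal summits. The promoter match of eIF2Bbeta, eIF3c and eIF6 was thus not within 100 bp of the summit.

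Sequences known for this repressor family lay near the summits of eEF2, eIF3h, eIF2Balpha and eIF3c among the 12. The share of all optimal summits with any of these sequences was not counted. The class B site was within 100 bp of the summit at eEF2 and the class C site at eIF3h, each 8.33% of 12 beside 2.88% and 3.21% of all summits. The N-box was there at eIF2Balpha and eIF3c, 16.7% beside 21.7%, and the same genes held GAGA, 16.7% beside 24.2%. No summit held the E-box, beside 6.09% of all summits, and eEF1alpha1 held the Motif 1 core, 8.33% beside 1.88%. In promoters, GAGA was in 15.4% of factor genes beside 29.7% of all, the N-box in 28.8% beside 29.7%, the class C site in 11.5% beside 6.12%, the class B site in 7.69% beside 4.20%, the E-box in 11.5% beside 9.32% and the Motif 1 core in 11.5% beside 7.70%. With 12 summits, a single gene is 8.33%. A match is only a description of the letters.

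TCTTT, a stand-in for the TCT initiator of ribosomal protein genes, was searched on the sense strand within 10 bp of the TSS. It was at eIF3d1, eIF3g1, eIF3i and eIF4A (7.69%, beside 2.25% of all genes), none of them bound, and at 29 of 86 cytosolic ribosomal protein genes (33.7%). The median GC content of the promoter windows was 36.2% for factor genes and 38% for all genes. At summits it was 42.0% for the 12 bound factor genes and 37.3% for all optimal regions. The part of base composition in the motif shares was not tested.

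**Figure D4:**
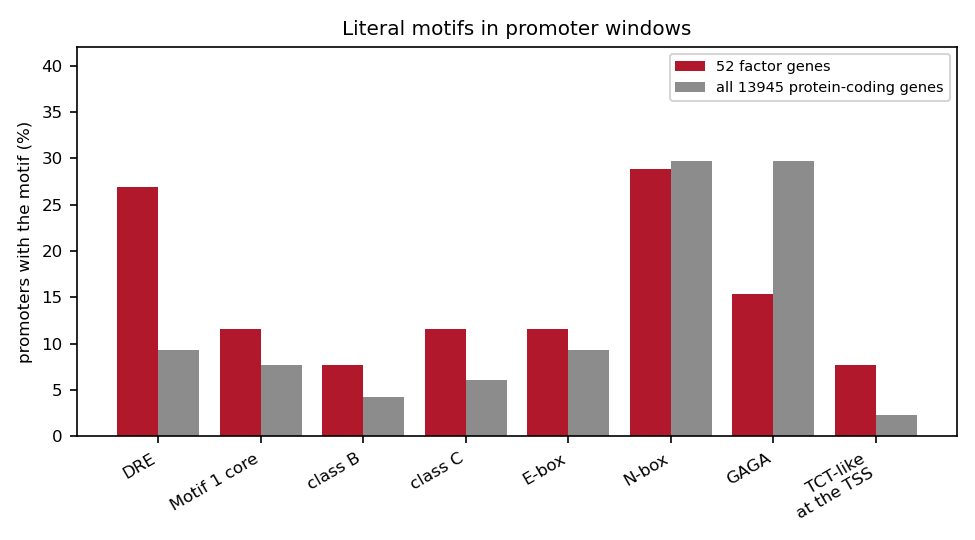
Share of promoter windows (percent, vertical axis from 0) that hold each motif, for the 52 factor genes (red) and all 13945 protein-coding genes (grey); the last pair is TCTTT within 10 bp of the TSS. The DRE stands at 26.9% beside 9.36%, and GAGA at 15.4% beside 29.7%.

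Other genes of translation gave the following counts for optimal regions, beside the 12.4% of all genes. Their lists were chosen with earlier results of these data known, so the shares describe only the genes listed. Of 86 cytosolic ribosomal protein genes, 50 were bound (58.1%, interval 47.6 to 68.0%). Of 20 aminoacyl-tRNA synthetase genes, which charge tRNAs, 4 were bound (20%): SerRS, IleRS, GluProRS and ThrRS. The start nearest to the GluProRS summit was that of AP-1sigma, and ThrRS ranked 4273 in replicate 2, outside its top list. None of 7 genes for termination and recycling and none of 7 for mitochondrial translation factors was bound, which for each list has an upper Wilson limit of 35.4%.

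Of 13 listed genes tied to the regulation of initiation, 6 were bound (46.2%, interval 23.2 to 70.9%). This list too was chosen with earlier results of these data known, so its share and interval describe only these genes. Lk6, the kinase that phosphorylates eIF4E, had a signal of 1115 at rank 11, with ranks of 15, 7 and 16 in the replicates and a summit 978 bp upstream. larp, whose product binds the 5′ ends of messages regulated by mTor, had a signal of 791 at rank 29 and ranks of 31, 30 and 30. Both were strong in every replicate, as was eIF2Bbeta. Thor, the 4E-BP that sequesters eIF4E, ranked 934 with a summit 39 bp inside the gene, and 1067, 477 and 2993 in the replicates. pAbp, for the poly(A)-binding protein that contacts eIF4G, ranked 843, Gcn2, an eIF2alpha kinase, 902, and mTor 2253. The nearest start was Ugt35D1 at Gcn2 and Vha68-1 at mTor, and mTor had no region in replicate 2. The remaining genes of this list, S6k, raptor, PEK, Paip2, NAT1, cup and crc, had no optimal region. Neither had eIF4E1, eIF4A, eIF4G1 and eIF4G2.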

How the data were processed

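ChIP-seq region lists of 3 biological replicates, the pooled list and the optimal set on dm6 were used. The lists were made by the authors against a control, and the optimal set by IDR, per the deposited descriptions; no caller, aligner, version or IDR threshold is given in the sources used here. The deposited signal of a region has no stated scale. The deposited q-value, as −log10, ran from 1.83 to 3.32 in the optimal set, and the deposited summit, another column, is an offset from the region's start. Each other list holds 30000 regions and includes background, per the deposited descriptions. No read numbers are given, so depth is unknown. No replicate lists were identical.

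Genes came from Ensembl release 115 and sequences from NCBI RefSeq for the same build. The summit was assigned to every gene with a TSS within 1 kb, and regions were ranked by signal within each list. All counts are descriptions without tests, set beside all protein-coding genes. Every factor gene is named, with full values for those with an optimal region. The factor genes and the other lists were chosen with earlier results of these data known. In the lists, the symbols Tor, alphaPheRS and betaPheRS were matched under the current symbols mTor, alpha-PheRS and beta-PheRS. The assignment was tested on simulated data with 200 regions. Alternatives were other windows, starts, list sizes and, for each replicate left out, the demand for the top lists of both others. Software was Matplotlib 3.10.9, NumPy 2.4.6, Python 3.11.15, SciPy 1.17.1 and pandas 2.3.3.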

Additional observations from a re-analysis of the deposited data

How the results depend on the processing

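Of 26 alternatives, 23 left the value within 1.5 times (counts) or 1 SD of the replicates' median ranks (the median rank), and 3 moved it further. When only optimal regions with a top region in both other replicates were used, bound factor genes numbered from 7 to 9, beside 8.54%, 8.66% and 8.84% of all genes without replicates 1, 2 and 3. Without replicate 1 the 7 were eEF1alpha1, eEF1gamma, eIF1, eIF2Bbeta, eIF3c, eIF4EHP and eIF6, and eEF2, eEF5, eIF2Balpha, eIF3h and eIF3m were lost. Their number with the own start nearest was then 5 to 7, and 5 without replicate 1. The DRE was counted at 4 bound genes in promoter windows and at 2 in summit windows. With summits within 500 bp, 19.2% of factor genes were bound beside 10.3%, within 2 kb 28.8% beside 15.9%, with the nearest gene only 17.3% beside 8.86%, and with the optimal regions above the set's median signal 15.4% beside 6.59%. No paired analysis was possible because the samples form 1 group. Unknown read depth limits all counts, and a missing region says only that none was listed within 1 kb.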

Other observations

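Optimal regions also lay inside factor genes far from their starts. A region in an intron of eIF4EHP, at chr3R:24099004-24099387, ranked 659 with a signal of 197, above the promoter region of the gene at rank 813. It lay 9764 bp downstream of the nearest eIF4EHP start, and the nearest start of any gene was that of Syx1A, 6567 bp away. A region in an intron of eIF5B, at chr3L:3438442-3438825, ranked 1924 with a signal of 104, at 21969 bp from the eIF5B start and 13699 bp upstream of sty. Neither region was counted in the comparisons.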
